A study of Mus musculus with 22 samples.

Results

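The 40 genes described here are imprinted genes of the mouse, taken by symbol from the count table of an RNA-seq study of embryonic stem cells (ESCs) and grouped by the imprinted domain in which they lie. All 40 symbols were present among the 44749 entries of the table, and they fall into 20 domains. By textbook annotation 12 of them are expressed from the maternal allele and 25 from the paternal allele, while Ube3a is maternal in neurons, Gnas depends on the isoform and Grb10 on the tissue. 7 of the 40 are noncoding RNAs.

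An imprinted gene is expressed mainly or only from the copy inherited from one parent. The choice is set in the germline by DNA methylation of an imprinting control region, which then governs a cluster of neighbouring genes through insulators, long noncoding RNAs and repressive chromatin, so that genes of one domain often answer to one switch. Many of these genes set the growth of the fetus and placenta. In cultured ESCs the imprints can drift and the levels vary between lines. The cells here come from an inbred strain and the counts sum both copies of a gene, so a level says nothing of which allele it came from.

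The study measured ribosome-depleted total RNA in male mouse ESCs of 129 origin grown without feeder cells in serum and LIF. Ythdc1 encodes a nuclear protein that binds RNA carrying N6-methyladenosine (m6A), Mettl3 the catalytic subunit of the enzyme that writes this mark, and Dux a transcription factor of the two-cell embryo. The 22 libraries form 10 groups. In the Ythdc1 set, 2 ESC lines with a conditional knockout (cKO) of Ythdc1 were given 4OHT (4-hydroxytamoxifen) in 4 libraries or DMSO in 4 libraries, and the table's columns do not say which line a library came from. The Mettl3 set has 2 libraries labelled Mettl3 KO and 2 labelled Mettl3 WT. The Dux set is built on the Ythdc1 cKO in every library, so its controls carry that allele too. It has Dux-KO cells under 4OHT and under DMSO with 2 libraries each, Dux-Het cells under 4OHT and under DMSO with 2 libraries each, and 1 library each under 4OHT and DMSO with no Dux label. In the Dux set the genotype and treatment fields are displaced by 1 sample relative to the titles, and the titles were followed. The Cre driver, the length of treatment and the number of clones behind each genotype are details not given in the sources used here.

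Depth was 24.96 to 54.14 M counts per library. Ythdc1 itself was at 49.0 to 62.8 CPM (counts scaled to library size, by TMM over all 22 libraries) under 4OHT, against 70.8 to 80.2 CPM under DMSO, a log2 fold change of -0.41 (adjusted p = 0.00064). Mettl3 stood at 14.5 and 28.4 CPM in the libraries labelled Mettl3 KO, against 29.0 and 29.9 CPM in Mettl3 WT, which did not pass the test (adjusted p = 0.207), so these libraries go by their label below. Duxf3, the entry for Dux, had 1 to 5 counts in each Dux-KO library. DMSO library 1 of the Ythdc1 set stood apart from the other 3 DMSO libraries (chi-square per degree of freedom 31.0 to 37.1 in its pairs, 8.44 to 10.8 among the others), and without it 23 imprinted genes were called in that set, 22 of them among the 25 called with it. The 2 Dux-KO libraries under DMSO differed from each other by more than any other pair of 1 group (99.1), and the Dux-Het libraries numbered 2 stood apart in H19 and Igf2, with values given at the end for these genes. In the Ythdc1 set the titles give 2 ESC lines with 2 replicates each under each treatment. The test took these 4 libraries as independent samples, although libraries of the same line need not be. Beyond these lines, nothing in the labels says that libraries of 1 group came from separate cultures. A p-value here thus reflects no more than the spread among the libraries compared. In bulk RNA, fewer cells of a type and less RNA per cell cannot be told apart.

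Levels per kilobase of exon were ordered within each set. In the Ythdc1 set Peg10 was highest, with a mean of 210.0 CPM per kb under 4OHT and 269 under DMSO, followed by H19 at 156 under 4OHT and 220.0 under DMSO and by Snurf at 148 under 4OHT and 131 under DMSO. Snurf had the highest mean in each of the 8 other groups, at 189 to 339 CPM per kb. Its place rests on an annotated exon length of only 0.216 kb. Without division by length its mean over the 22 libraries was 47.5 CPM, against 1010 for Peg10, 607 for Rian and 308 for H19. Zim1 was among the lowest in the Ythdc1 set, with 0.32 CPM per kb under 4OHT and 0.297 under DMSO, and Rasgrf1 was the lowest of the 40 in all 10 groups. Rasgrf1, a guanine nucleotide exchange factor for Ras, had 0 counts in 7 libraries and at most 13 in any, and was too low to be tested in the Ythdc1 and Mettl3 sets. The other 39 members were tested there and all 40 in the Dux set.

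Under 4OHT, 11 imprinted genes rose and 14 fell of the 39 tested in Ythdc1 cKO cells (edgeR's quasi-likelihood test, Benjamini-Hochberg adjusted p under 0.05). That is 64.1% of them, beside 45.1% of all 24385 entries tested, of which 23.7% rose and 21.4% fell. Their median log2 fold change was 0.11, against 0.02 over all entries. The calls ran both ways within both parental classes: of 12 maternally expressed genes 4 rose and 3 fell, and of 24 paternally expressed genes 7 rose and 9 fell. The 4OHT and DMSO libraries did not overlap for 15 of the 25 called genes (60.0%), 5 higher and 10 lower, and for 85.7% of all called entries. The largest changes were a rise of Magel2 and a fall of Usp29.

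**Figure D1:**
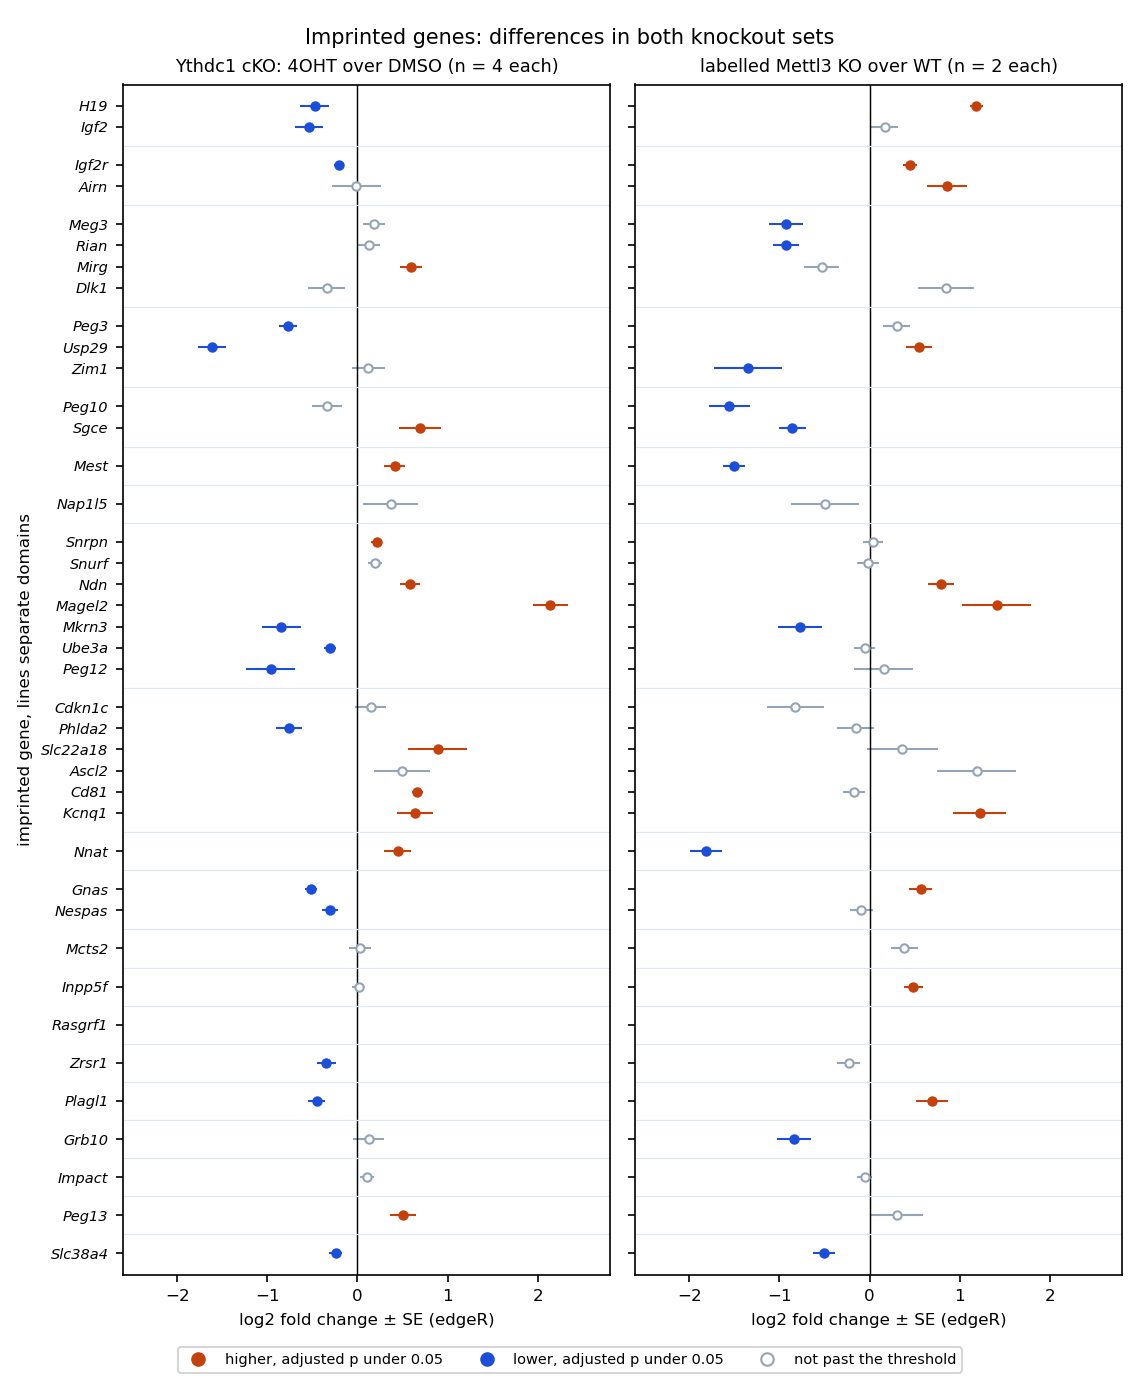
Log2 fold change of each tested imprinted gene in Ythdc1 cKO cells, 4OHT over DMSO, and in the libraries labelled Mettl3 KO over Mettl3 WT, arranged by domain, with bars of 1 standard error and filled points for adjusted p under 0.05. Magel2 is highest in the Ythdc1 set at 2.14 and Usp29 lowest at -1.61, while in the Mettl3 set Magel2 stands at 1.41 and Nnat is lowest at -1.81.

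The Snrpn-Ube3a domain on chromosome 7, whose loss in humans underlies the Prader-Willi and Angelman syndromes, held genes that moved both ways. Magel2 (chr7:62377010-62381640, GRCm38, plus strand) encodes a MAGE protein that works with ubiquitin ligases in protein recycling. It had 7.88, 9.11, 9.35 and 9.89 CPM under 4OHT, against 3.23, 1.76, 1.51 and 1.84 CPM under DMSO. Every 4OHT library lay above every DMSO library, and the fold was 4.40 (log2 2.14, SE 0.20, adjusted p = 2.87e-07). Ndn, which encodes the growth suppressor necdin, rose 1.49-fold to 13.3 ± 1.37 CPM under 4OHT, against 9.01 ± 0.963 CPM under DMSO (SD, n = 4 each; adjusted p = 0.000508). Their neighbours went the other way. Mkrn3, a ubiquitin ligase that restrains the onset of puberty, fell to 1.16 ± 0.161 CPM under 4OHT, against 2.10 ± 0.239 CPM under DMSO (log2 -0.84, SE 0.22, adjusted p = 0.00508). Peg12, a member of the FRAT family of GSK3-binding proteins, fell to 1.14 ± 0.439 CPM under 4OHT, against 2.30 ± 0.369 CPM under DMSO (log2 -0.96, SE 0.27, adjusted p = 0.0087). In these 4 genes the 4OHT and DMSO libraries did not overlap. Snrpn, which encodes a core spliceosomal protein, rose 1.16-fold (adjusted p = 0.00905) and Ube3a, a ubiquitin ligase, fell by 0.30 on the log2 scale (adjusted p = 0.00198). Snurf, an upstream reading frame of the Snrpn transcript, had a log2 fold change of 0.20 with adjusted p = 0.0522, which was 0.0244 with library number as a replicate block, 0.021 without DMSO library 1 and 0.0365 without 4OHT library 4. Ube3a lies opposite the antisense transcript Snhg14, and Snurf shares exons with Snrpn. Magel2 and Ndn lie opposite the annotated gene Gm32061, which overlaps Mkrn3 on the same strand. Whether reads were counted by strand is information not given in the sources used here, so values of such pairs are uncertain.

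The promoter window of Magel2, 250 bases before to 50 after the start that RefSeq gives (GRCm38.p6, chr7:62376729-62377028, plus strand), is shown because this gene had the largest rise. It holds 10 CpG dinucleotides, where the median of all windows is 7, and no TGCCGC, the hexamer read by the imprint guardian ZFP57 when methylated, on either strand.
Magel2: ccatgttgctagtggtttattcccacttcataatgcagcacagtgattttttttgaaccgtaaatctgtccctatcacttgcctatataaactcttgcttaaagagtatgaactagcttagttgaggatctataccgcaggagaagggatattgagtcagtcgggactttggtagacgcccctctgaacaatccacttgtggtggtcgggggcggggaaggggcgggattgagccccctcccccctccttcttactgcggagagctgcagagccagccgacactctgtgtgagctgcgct

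In the Peg3 domain near the start of chromosome 7, 2 of 3 genes fell. Peg3 (chr7:6703892-6730431, minus strand), which encodes a large zinc finger protein and names the domain, had 203, 242, 231 and 245 CPM under 4OHT. Under DMSO it had 308, 403, 419 and 468 CPM. No 4OHT library reached the lowest DMSO library, and the log2 fold change was -0.78 (SE 0.10, adjusted p = 1.08e-05). Usp29 (chr7:6730578-6967219, plus strand), a deubiquitinase gene read from the same promoter region in the opposite direction, had 3.03, 4.25, 4.16 and 5.41 CPM under 4OHT, against 12.6, 13.6, 11.2 and 14.5 CPM under DMSO. The groups lay far apart, at a 3.05-fold difference (log2 -1.61, SE 0.15, adjusted p = 4.21e-07). Zim1, the maternally expressed zinc finger gene beside them, had 2.58 ± 0.324 CPM under 4OHT and 2.40 ± 0.262 CPM under DMSO, with adjusted p = 0.62.

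The window of Usp29 (GRCm38.p6, chr7:6730333-6730632, plus strand) is given because Peg3 and Usp29 start head to head inside it: their RefSeq windows share 263 bases. It holds 17 CpG dinucleotides and no TGCCGC.
Usp29: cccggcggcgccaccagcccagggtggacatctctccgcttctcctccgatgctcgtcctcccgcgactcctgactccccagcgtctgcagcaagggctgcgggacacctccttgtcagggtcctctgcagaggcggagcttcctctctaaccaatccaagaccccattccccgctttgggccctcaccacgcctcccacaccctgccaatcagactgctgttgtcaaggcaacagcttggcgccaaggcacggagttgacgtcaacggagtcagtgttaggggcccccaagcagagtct

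H19 and Igf2 fell together. H19 (chr7:142575529-142578143, minus strand) is a maternally expressed noncoding RNA, and Igf2 (chr7:142650766-142666816, minus strand) the paternally expressed fetal growth factor that shares its enhancers. H19 had 337, 465, 287 and 448 CPM under 4OHT, against 406, 527, 486 and 742 CPM under DMSO. Igf2 had 26.9, 30.8, 22.1 and 35.7 CPM under 4OHT, against 33.4, 36.8, 42.4 and 57.0 CPM under DMSO. In both genes the ranges overlapped, with log2 fold changes of -0.47 for H19 (SE 0.16, adjusted p = 0.0246) and -0.54 for Igf2 (SE 0.15, adjusted p = 0.00923). The H19 call was lost without DMSO library 4 (adjusted p = 0.112), without 4OHT library 1 (0.0716) or 3 (0.086), and with DESeq2 (0.108). The ratio of H19 to Igf2 counts overlapped between treatments, at 12.5, 15.1, 13 and 12.6 under 4OHT and 12.1, 14.3, 11.4 and 13 under DMSO.

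In the Igf2r-Airn domain on chromosome 17, Igf2r, the maternally expressed receptor that carries IGF2 to lysosomes, fell to 107 ± 3.55 CPM under 4OHT, against 125 ± 5.31 CPM under DMSO (log2 -0.21, SE 0.05, adjusted p = 0.00433). The groups did not overlap. Airn, the paternally expressed RNA antisense to Igf2r that silences it in cis, had 2.33, 4.88, 4.46 and 8.52 CPM under 4OHT, against 5.28, 5.01, 3.76 and 6.38 CPM under DMSO (log2 -0.01, SE 0.28, adjusted p = 0.98). Its 4OHT libraries spread on both sides of the DMSO libraries.

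The Dlk1-Meg3 domain on chromosome 12 holds the paternally expressed Notch-type ligand Dlk1 and the maternally expressed noncoding RNAs Meg3, Rian and Mirg, of which Rian hosts small nucleolar RNAs and Mirg microRNAs. Mirg had 128.5, 199, 218 and 205 CPM under 4OHT, against 108, 137, 119 and 139.9 CPM under DMSO. Only 4OHT library 1 fell within the DMSO range, and Mirg rose 1.51-fold (log2 0.60, SE 0.13, adjusted p = 0.000987). Meg3, at the start of the domain's maternal transcription, had 318, 486, 535 and 483 CPM under 4OHT, against 331, 442, 413 and 438 CPM under DMSO. Its log2 fold change of 0.18 had an SE of 0.12 and adjusted p = 0.242. With library number as a replicate block the adjusted p was 0.0158, and without 4OHT library 1 it was 0.00791. Rian was at 749 ± 150.0 CPM under 4OHT and 697 ± 94.0 CPM under DMSO (adjusted p = 0.435). Without 4OHT library 1 its log2 fold change was 0.26 (adjusted p = 0.0265). Dlk1 was at 4.05 ± 1.05 CPM under 4OHT and 5.20 ± 1.34 CPM under DMSO (log2 -0.34, adjusted p = 0.194). The count ratio of Mirg to Meg3 was 0.405, 0.409, 0.408 and 0.425 under 4OHT, above each of the DMSO ratios of 0.326, 0.309, 0.288 and 0.319.

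**Figure D2:**
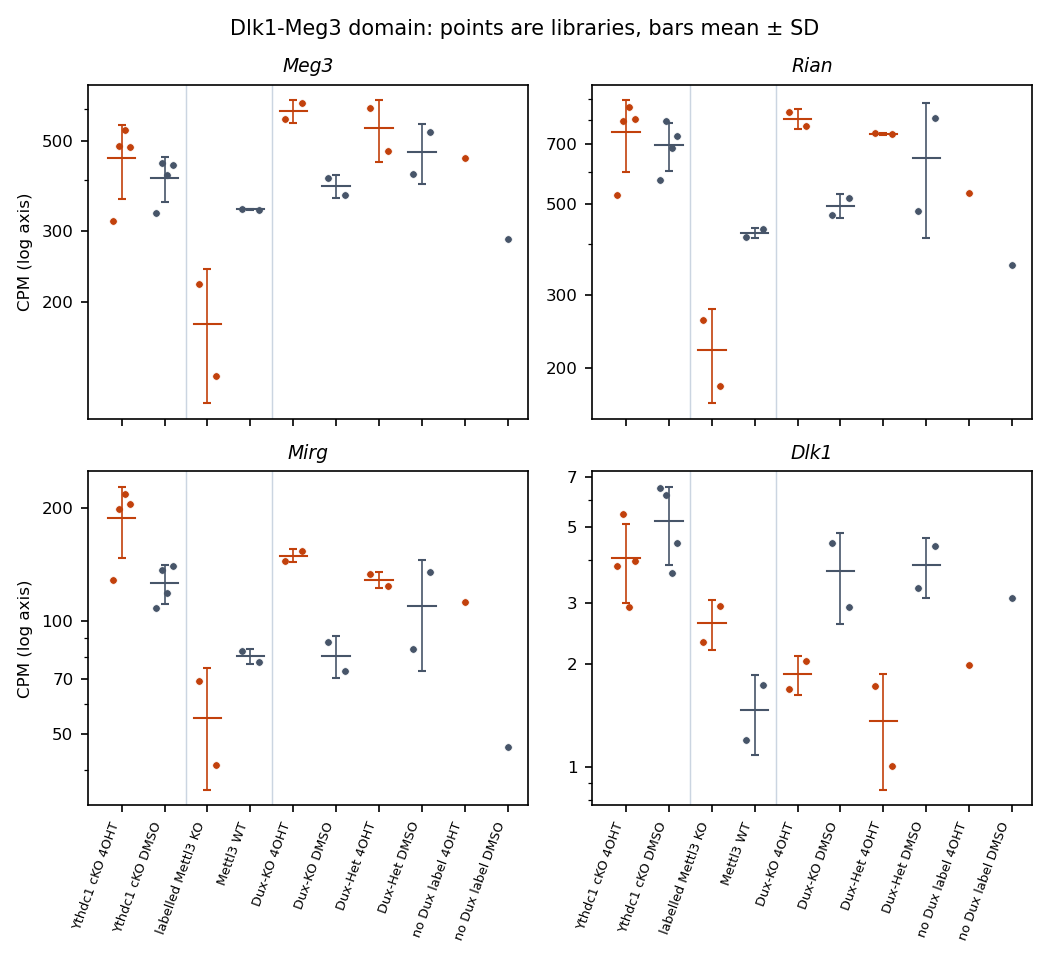
Levels of Meg3, Rian, Mirg and Dlk1 in the 22 libraries, in CPM on a log axis, by group, with each group's mean ± SD where it has more than 1 library. In Dux-KO cells the 2 libraries under 4OHT lie above the 2 under DMSO for Meg3, Rian and Mirg, and in the Mettl3 set the 2 libraries labelled KO lie below the 2 WT libraries for the same genes.

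In the Kcnq1 domain at the end of chromosome 7, which holds 6 of the 40 genes, 3 rose and 1 fell. Cd81, a tetraspanin of the cell surface, had 197, 179, 165 and 196 CPM under 4OHT, against 115.5, 120.4, 115.1 and 120.5 CPM under DMSO. The DMSO libraries were tightly grouped and all 4OHT libraries stood above them (1.59-fold, log2 0.67, SE 0.06, adjusted p = 3.99e-07). Phlda2, which restrains growth of the placenta, had 6.15, 6.14, 5.09 and 7.03 CPM under 4OHT, against 10.99, 12.97, 8.37 and 9.51 CPM under DMSO. It was lower in every 4OHT library than in any DMSO library (log2 -0.76, SE 0.14, adjusted p = 0.00041). Kcnq1, a potassium channel subunit, rose to 2.28 ± 0.0834 CPM under 4OHT, against 1.49 ± 0.248 CPM under DMSO (adjusted p = 0.0169, and 0.0521 without DMSO library 3). Slc22a18, a transporter of organic cations, was at 1.70 ± 0.607 CPM under 4OHT and 0.924 ± 0.36 CPM under DMSO (adjusted p = 0.0361). That call was lost without DMSO library 1, 2 or 4 or 4OHT library 3 or 4, with adjusted p between 0.0563 and 0.138. Cdkn1c, an inhibitor of cyclin-dependent kinases, and Ascl2, a transcription factor of the trophoblast, did not pass the test, with log2 fold changes of 0.15 (adjusted p = 0.516) and 0.50 (adjusted p = 0.208).

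Peg10 and Sgce sit head to head on chromosome 6. Sgce, which encodes epsilon-sarcoglycan, had 30.0, 25.3, 43.4 and 51.0 CPM under 4OHT, against 14.4, 18.3, 27.2 and 33.8 CPM under DMSO. Peg10, a gene derived from a retrotransposon and needed for the placenta, had 1048, 1334, 1197 and 2034 CPM under 4OHT, against 1623, 1553, 1613 and 2378 CPM under DMSO. In each gene the ranges overlapped, and in each numbered pair the 4OHT library was the higher for Sgce and the lower for Peg10. Sgce rose 1.62-fold (log2 0.69, SE 0.23, adjusted p = 0.0226). Its call was lost with DESeq2 (adjusted p = 0.104) and without DMSO library 1 (0.0594) or 2 (0.0829) or 4OHT library 3 (0.0649) or 4 (0.0849). The Peg10 log2 fold change of -0.33 did not pass the test (SE 0.17, adjusted p = 0.115), but did with library number as a replicate block (-0.36, adjusted p = 1.32e-05) and without 4OHT library 4 (-0.57, adjusted p = 0.00149). The count ratio of Peg10 to Sgce was 34.9, 52.8, 27.6 and 39.9 under 4OHT, below each of the DMSO ratios of 112, 84.9, 59.3 and 70.3.

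Gnas, which encodes the stimulatory G protein alpha subunit, had 81.1, 93.9, 85.1 and 103 CPM under 4OHT, against 133, 134, 124 and 136 CPM under DMSO. The groups did not overlap (log2 -0.52, SE 0.07, adjusted p = 1.62e-05). Nespas, the noncoding RNA antisense to part of the Gnas locus, fell to 24.5 ± 1.24 CPM under 4OHT, against 30.8 ± 3.53 CPM under DMSO (adjusted p = 0.0102).

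Among the genes that stand alone in their domain, Plagl1, a zinc finger transcription factor that restrains growth, fell to 18.3 ± 2.12 CPM under 4OHT, against 25.5 ± 2.37 CPM under DMSO (log2 -0.45, SE 0.10, adjusted p = 0.00106). Mest, a member of the alpha/beta hydrolase family linked to growth and maternal behaviour in mice, had 376, 396, 359 and 328 CPM under 4OHT, against 365, 292, 219 and 237 CPM under DMSO. Its ranges overlapped through DMSO library 1, and it rose 1.33-fold (SE 0.12 on the log2 scale, adjusted p = 0.00756). Nnat, a small membrane protein of neurons and endocrine cells, had 46.1, 68.8, 64.3 and 87.8 CPM under 4OHT, against 44.2, 47.6, 44.0 and 62.8 CPM under DMSO. Its rise (log2 0.45, SE 0.15, adjusted p = 0.0229) was lost with DESeq2 (0.101) and without DMSO library 1, 2 or 3 or 4OHT library 2 or 4 (0.0548 to 0.0956). Peg13, a noncoding RNA within Trappc9, rose 1.42-fold (adjusted p = 0.00909). Zrsr1, a retrogene related to the splicing factor U2AF, fell by 0.35 on the log2 scale (adjusted p = 0.0133). Slc38a4, an amino acid transporter of the placenta and liver, fell by 0.24 (adjusted p = 0.0133), with 0.0568 without DMSO library 2 and 0.0563 without 4OHT library 3. Grb10, an adaptor that restrains insulin signalling, had a log2 fold change of 0.13 (adjusted p = 0.587). Impact, a restraint on the stress kinase GCN2, the phosphatase gene Inpp5f, the retrogene Mcts2 and the nucleosome assembly family gene Nap1l5 had log2 fold changes of 0.10, 0.01, 0.03 and 0.37 and did not pass the test. Mcts2 and Zrsr1 have close copies on the X chromosome and their counts are uncertain where reads could be split between copies.

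**Figure D3:**
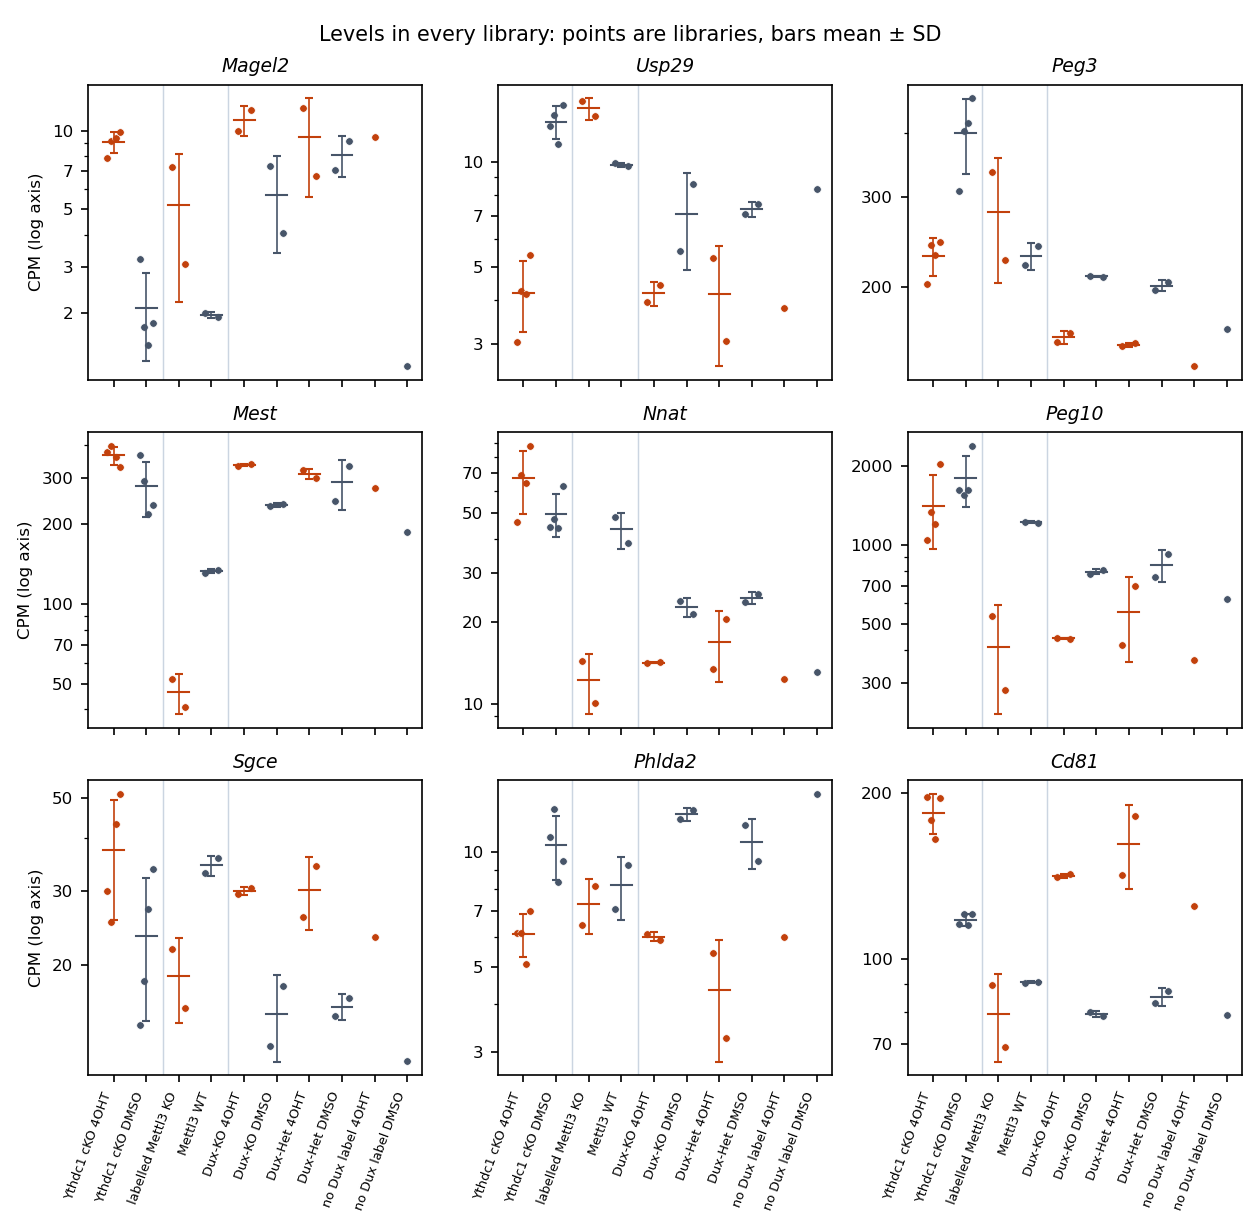
Levels of 9 imprinted genes (Magel2, Usp29, Peg3, Mest, Nnat, Peg10, Sgce, Phlda2 and Cd81) in the 22 libraries, in CPM on a log axis, by group, with each group's mean ± SD where it has more than 1 library. Cd81 is higher and Phlda2 lower under 4OHT than under DMSO in the Ythdc1 cKO, Dux-KO and Dux-Het groups without overlap, and Mest and Nnat are lowest in the Mettl3 set in the libraries labelled KO.

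Sums of marker genes of other cell types were compared in the same libraries. The 5 primitive endoderm markers summed to 12.8 to 18.4 CPM under 4OHT, against 8.64 to 11.9 CPM under DMSO. The 6 trophectoderm markers summed to 34.1 to 44.6 CPM under 4OHT, against 30.9 to 35.6 CPM under DMSO. The 5 ESC markers summed to 714 to 875 CPM under 4OHT, against 987 to 1100.0 CPM under DMSO. The 6 fibroblast markers summed to 11.4 to 19.1 CPM under 4OHT, against 18.8 to 24.0 CPM under DMSO. The 6 neural markers summed to 124 to 148 CPM under 4OHT, against 90.4 to 153 CPM under DMSO. The primitive endoderm and ESC sums did not overlap between treatments, and the other 3 did. By single tests 0 of 5 ESC markers rose and 2 fell (median log2 fold change -0.17), so their sum does not stand for each marker. Of 5 primitive endoderm markers 4 rose and 0 fell. Of 6 trophectoderm markers 2 rose and 1 fell, of 6 fibroblast markers 0 and 2, and of 6 neural markers 1 and 1. Of all entries 45.1% were called. No marker of these lists was at 0 in either group. The part of these cell types in the levels of the imprinted genes was not tested.

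In the libraries labelled Mettl3 KO, 10 imprinted genes were higher and 10 lower than in Mettl3 WT among the 39 tested. That is 51.3% of them, beside 31.2% of all 23977 entries, of which 16.4% were higher and 14.9% lower. Their median log2 fold change was -0.02 and that of all entries 0.02. For each of the 20 called genes the 2 libraries labelled KO and the 2 WT libraries did not overlap, as was also the case for 9 of the 19 genes that were not called (47.4%). Over all entries the groups did not overlap for 7491 of the 7492 called and for 50.9% of those not called. The largest rises were in Magel2, Kcnq1 and H19 and the largest falls in Nnat, Peg10 and Mest.

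H19 had 404 and 399 CPM in the libraries labelled Mettl3 KO, against 184 and 174 CPM in Mettl3 WT (2.27-fold, log2 1.18, SE 0.07, adjusted p = 1.91e-05). Igf2 had 10.9 and 10.3 CPM in the libraries labelled KO and 9.04 and 9.99 CPM in WT (adjusted p = 0.442), so the count ratio of H19 to Igf2 was 37.0 and 38.9 in the libraries labelled KO and 20.4 and 17.4 in WT. Igf2r and Airn both rose. Igf2r had 177 and 184 CPM in the libraries labelled KO, against 129 and 138 CPM in WT (log2 0.45, SE 0.08, adjusted p = 0.00305). Airn had 4.46 and 4.86 CPM in the libraries labelled KO, against 2.51 and 2.67 CPM in WT (log2 0.86, SE 0.23, adjusted p = 0.0176). The 2 genes overlap on opposite strands, and reads counted without strand could not be told apart between them.

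Mest had 52.0 and 40.7 CPM in the libraries labelled Mettl3 KO, against 131 and 134 CPM in WT (log2 -1.50, SE 0.12, adjusted p = 4.6e-05). Nnat had 14.4 and 10.1 CPM in the libraries labelled KO, against 48.1 and 38.8 CPM in WT (log2 -1.81, SE 0.18, adjusted p = 0.000123). Peg10 had 539.7 and 282 CPM in the libraries labelled KO, against 1226 and 1215 CPM in WT (log2 -1.56, SE 0.23, adjusted p = 0.000986). All 3 are paternally expressed, but of the 24 paternally expressed genes tested in this set 6 were higher and 6 lower. Of the 12 maternally expressed genes 3 were higher and 3 lower. In each of the 3 genes the 2 libraries labelled KO lay below both WT libraries. The groups did not overlap for 66.3% of all entries tested. Sgce fell with its neighbour Peg10, to 18.9 ± 4.29 CPM in the libraries labelled KO, against 34.5 ± 1.90 CPM in WT (SD, n = 2 each; log2 -0.86, SE 0.15, adjusted p = 0.00292).

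The promoter windows of Mest (GRCm38.p6, chr6:30737800-30738099, plus strand) and Nnat (chr2:157559828-157560127, plus strand), again from RefSeq, are shown because these genes fell in the libraries labelled KO and rose under 4OHT in the Ythdc1 set. Capitals mark TGCCGC or its reverse complement GCGGCA, and each window holds 17 CpG dinucleotides.
Mest: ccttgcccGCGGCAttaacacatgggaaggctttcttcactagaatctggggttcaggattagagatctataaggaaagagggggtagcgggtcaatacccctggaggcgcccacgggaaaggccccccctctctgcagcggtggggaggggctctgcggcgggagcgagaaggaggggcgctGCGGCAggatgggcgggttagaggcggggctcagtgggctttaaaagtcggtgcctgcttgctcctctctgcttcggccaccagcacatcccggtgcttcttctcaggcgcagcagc
Nnat: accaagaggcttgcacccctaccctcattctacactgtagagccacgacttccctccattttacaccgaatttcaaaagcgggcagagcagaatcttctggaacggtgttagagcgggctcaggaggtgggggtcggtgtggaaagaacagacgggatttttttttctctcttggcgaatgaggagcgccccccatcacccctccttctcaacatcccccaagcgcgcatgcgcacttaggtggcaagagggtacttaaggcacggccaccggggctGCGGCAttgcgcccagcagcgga
The hexamer occurred in 12 of the 47 windows of the 32 members found in the RefSeq table (25.5%), and in 11.6% of all 32851 windows. By gene it was found in 11 of the 32 members, Grb10, Igf2, Mcts2, Meg3, Mest, Nap1l5, Nnat, Plagl1, Snrpn, Snurf and Zim1. A match in a window is a description of its letters, and Snrpn and Snurf share the window that holds it. Mest enters the count by window with 2 nearly identical windows, starting at 30737800 and 30737803. The hexamer itself holds a CpG, and the shares were not matched for the CpG content of the windows. By gene the share was 34.4% of the members, beside 13.1% of all 27025 genes in the table.

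The maternal noncoding RNAs of the Dlk1-Meg3 domain were lower in the libraries labelled Mettl3 KO. Meg3 had 222 and 131 CPM there, against 340.1 and 339 CPM in WT (log2 -0.93, SE 0.19, adjusted p = 0.00555). Rian had 262 and 180.5 CPM in the libraries labelled KO, against 417 and 435 CPM in WT (log2 -0.93, SE 0.14, adjusted p = 0.00129). Mirg had 69.4 and 41.2 CPM in the libraries labelled KO and 83.4 and 78.0 CPM in WT, a difference that did not pass the test (log2 -0.53, SE 0.19, adjusted p = 0.0661). In all 3 genes the library labelled KO 2 was the lower of the pair. Dlk1 had 2.32 and 2.94 CPM in the libraries labelled KO and 1.20 and 1.74 CPM in WT (log2 0.84, adjusted p = 0.0677).

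Of the Snrpn-Ube3a domain, Magel2 had 7.30 and 3.08 CPM in the libraries labelled Mettl3 KO, against 2.01 and 1.94 CPM in WT (log2 1.41, SE 0.38, adjusted p = 0.0198). The library labelled KO 2 lay near the WT libraries, and without the library labelled KO 1 the adjusted p was 0.0941. Ndn rose 1.73-fold to 14.3 ± 1.18 CPM in the libraries labelled KO, against 8.36 ± 0.0969 CPM in WT (adjusted p = 0.00329). Mkrn3 fell to 2.15 ± 0.0799 CPM in the libraries labelled KO, against 3.72 ± 0.227 CPM in WT (adjusted p = 0.0371). Snrpn, Snurf, Ube3a and Peg12 did not pass the test, with adjusted p = 0.823 for Snrpn and 0.761 for Peg12.

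In the Peg3 domain, Usp29 had 14.9 and 13.5 CPM in the libraries labelled Mettl3 KO, against 9.89 and 9.69 CPM in WT (log2 0.55, SE 0.14, adjusted p = 0.0163), and Zim1 fell to 0.858 ± 0.171 CPM in the libraries labelled KO, against 2.20 ± 0.762 CPM in WT (adjusted p = 0.0242). Peg3 had 336 and 226.5 CPM in the libraries labelled KO and 221 and 240.4 CPM in WT, which overlapped (adjusted p = 0.168). Gnas was higher in the libraries labelled KO, at 180.3 and 135.5 CPM, against 103 and 112 CPM in WT (log2 0.57, SE 0.13, adjusted p = 0.00862). Kcnq1 rose 2.33-fold (adjusted p = 0.0111), while Cd81 and Phlda2 of the same domain did not pass the test (adjusted p = 0.312 and 0.606). Plagl1 rose 1.62-fold (adjusted p = 0.0159) and Inpp5f, a phosphoinositide phosphatase, 1.40-fold (adjusted p = 0.00684). Grb10 fell to 8.56 ± 2.28 CPM in the libraries labelled KO, against 15.5 ± 0.905 CPM in WT (log2 -0.84, adjusted p = 0.00824). Slc38a4 fell by 0.51 on the log2 scale (adjusted p = 0.0122).

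With 2 libraries a group these calls rest on few samples. H19 and Mest were called without any 1 of the 4 libraries. Without WT library 1 they were the only 2 of the 20 still called, the other adjusted p-values lying between 0.0516 and 0.228. Without WT library 2 Nnat and Peg10 were called as well, the others lying between 0.0591 and 0.261. Without the library labelled KO 1 the 25 called genes took in Ascl2, Cd81, Dlk1, Mcts2, Mirg and Nespas, and without KO 2 the 27 took in Cdkn1c, Mirg, Peg13, Peg3, Snrpn, Ube3a and Zrsr1. In these fits the lone library is assumed to vary like the pair in the other group. The 6 neural markers summed to 43.5 to 74.0 CPM in the libraries labelled KO, against 99.5 to 103 CPM in WT, and the 6 fibroblast markers to 19.7 to 37.4 CPM, against 48.0 to 53.5 CPM. The 6 trophectoderm markers summed to 32.7 CPM in both libraries labelled KO, where Elf5 was at 0, against 25.5 to 27.5 CPM in WT. The 5 primitive endoderm markers summed to 6.74 to 7.37 CPM in the libraries labelled KO, against 5.81 to 5.83 CPM in WT. The 5 ESC markers overlapped, at 836 to 876 CPM in the libraries labelled KO and 846 to 848 CPM in WT. By single tests 0 of 6 neural markers rose and 2 fell, as for the 6 fibroblast markers. Of 5 trophectoderm markers tested 2 rose and 0 fell. Of 4 primitive endoderm markers tested 1 rose and 0 fell, and of 5 ESC markers 1 rose and 1 fell. Of all entries 31.2% were called. The part of these shifts in the levels of the imprinted genes was not tested.

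The effects of 4OHT in the Ythdc1 set and of the Mettl3 KO label differed for 19 of 39 imprinted genes when the difference itself was tested in 1 fit of both sets, 11 of them higher and 8 lower in the Ythdc1 effect. That is 48.7%, beside 25.3% of the 28260 entries tested, 13.7% higher and 11.6% lower. The largest differences were in Nnat (2.30, adjusted p = 6.2e-06) and Usp29 (-2.12, adjusted p = 2.66e-06). Mest differed by 1.96 (adjusted p = 9.72e-07), H19 by -1.61 (adjusted p = 0.00012) and Sgce by 1.59 (adjusted p = 0.00498). These are differences of log2 fold changes, the Ythdc1 effect minus the Mettl3 effect. Meg3, Rian and Mirg differed by 1.15, 1.10 and 1.17 (adjusted p = 0.00188, 0.00108 and 0.00194). Gnas, Peg3, Plagl1 and Igf2r were lower in the Ythdc1 effect, by -1.04, -1.03, -1.10 and -0.61. For Magel2 the difference of 0.77 did not pass the test (adjusted p = 0.206, and 0.0119 without the library labelled Mettl3 KO 1), nor did that for Ndn (-0.17, adjusted p = 0.569) or Kcnq1 (-0.54, adjusted p = 0.283). Those for Igf2 (-0.66, adjusted p = 0.0856), Peg12 and Slc38a4 passed the threshold with library number as a replicate block (adjusted p = 0.0111, 0.0486 and 0.0291). Cd81, also among the 19, differed by 0.88 (adjusted p = 4.85e-05). The calls of Cdkn1c, Dlk1, Grb10 and Inpp5f were lost without at least 1 library each, with adjusted p up to 0.279, 0.195, 0.171 and 0.0644. Without the library labelled Mettl3 KO 2 that of Peg10 (1.26, adjusted p = 0.00679) was lost with adjusted p = 0.0554, and that of Zim1 (1.51, adjusted p = 0.00561) without Mettl3 WT 2 with 0.0972.

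The 2 sets share no library. 13 of the 39 imprinted genes tested in both were called in both, out of 25 in the Ythdc1 set and 20 in the Mettl3 set. Of all 22499 entries tested in both sets 4197 were called in both, out of 10398 and 7154. Whether the overlap exceeds what these call rates give was not tested. 5 of the 13 moved the same way, Kcnq1, Magel2 and Ndn higher and Mkrn3 and Slc38a4 lower. 8 moved in opposite directions, namely Gnas, H19, Igf2r, Mest, Nnat, Plagl1, Sgce and Usp29. The same direction thus held for 38.5% of these genes, and for 70.3% of the 4197 entries called in both sets. Genes of 1 domain are not independent of each other, and no test was made of this contrast.

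In the Dux set the effect of 4OHT was measured again with 2 libraries a group. In Dux-KO cells 6 imprinted genes rose and 2 fell of 40 tested (20%, beside 9.86% of all 29322 entries, 5.5% higher and 4.36% lower). In Dux-Het cells 3 rose and 3 fell (15.0%, beside 9.34% of all entries, 4.99% higher and 4.34% lower). Their median log2 fold change was -0.06 in Dux-KO cells, where that of all entries was 0.05, and 0.00 in Dux-Het cells, where that of all entries was 0.04. Cd81, Sgce and Phlda2 were called in both.

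Cd81 had 141 and 142 CPM in Dux-KO cells under 4OHT, against 80.0 and 78.6 CPM under DMSO (log2 0.88, SE 0.15, adjusted p = 0.00528). In Dux-Het cells it had 142 and 182 CPM under 4OHT, against 83.0 and 87.5 CPM under DMSO (log2 0.94, SE 0.15, adjusted p = 0.00367). Neither genotype overlapped between treatments. With 2 libraries a group this was common, holding for 60.0% of all entries in Dux-KO cells and 52.7% in Dux-Het cells. Sgce had 29.5 and 30.4 CPM in Dux-KO cells under 4OHT, against 12.8 and 17.9 CPM under DMSO (log2 1.01, SE 0.20, adjusted p = 0.0118). In Dux-Het cells Sgce had 26.0 and 34.4 CPM under 4OHT, against 15.1 and 16.7 CPM under DMSO (log2 0.94, SE 0.20, adjusted p = 0.0154). Its 4OHT libraries stood above the DMSO libraries in both genotypes. Phlda2 had 6.12 and 5.90 CPM in Dux-KO cells under 4OHT, against 12.3 and 12.95 CPM under DMSO (log2 -1.03, SE 0.25, adjusted p = 0.026). In Dux-Het cells it had 5.44 and 3.27 CPM under 4OHT, against 11.8 and 9.52 CPM under DMSO (log2 -1.27, SE 0.25, adjusted p = 0.0105), again with no overlap.

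In Dux-KO cells the 3 maternal noncoding RNAs of the Dlk1-Meg3 domain rose together. Meg3 had 567 and 623 CPM under 4OHT, against 406 and 369 CPM under DMSO (log2 0.66, SE 0.17, adjusted p = 0.0367). Rian had 839 and 776 CPM under 4OHT, against 472 and 519 CPM under DMSO (log2 0.75, SE 0.21, adjusted p = 0.0454), and missed the threshold with the authors' scaling factors (adjusted p = 0.0547) and with RLE scaling (0.0529). Mirg had 145 and 153 CPM under 4OHT, against 88.0 and 73.6 CPM under DMSO (log2 0.93, SE 0.21, adjusted p = 0.0197). No library overlapped in these 3 genes, as was the case for 60.0% of all 29322 entries in Dux-KO cells and 55.7% of those not called. In Dux-Het cells Meg3 had 605 and 472.5 CPM under 4OHT, against 415 and 528 CPM under DMSO, and Mirg had 133 and 124 CPM under 4OHT, against 84.3 and 135 CPM under DMSO. Rian had 746 and 739.8 CPM under 4OHT, against 482 and 812 CPM under DMSO. There the groups overlapped through DMSO library 2 and no one of the 3 passed the test. Without that library the log2 fold change of Rian was 0.65 (adjusted p = 0.0415). In the same cells Dlk1 fell to 1.72 and 1.01 CPM under 4OHT, against 3.33 and 4.40 CPM under DMSO (log2 -1.49, SE 0.35, adjusted p = 0.0229). In Dux-KO cells Dlk1 had 1.69 and 2.04 CPM under 4OHT and 4.49 and 2.93 CPM under DMSO (log2 -0.94, adjusted p = 0.105). Tested as such, the difference in 4OHT effect between Dux-KO and Dux-Het cells passed the threshold for none of the 40 genes with edgeR or with DESeq2, and for 0% of all entries with edgeR. At an unadjusted p under 0.05 there was 1, Mirg, with a difference of 0.68.

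Peg10 fell in Dux-KO cells, with 444 and 441 CPM under 4OHT, against 779 and 806 CPM under DMSO (log2 -0.80, SE 0.21, adjusted p = 0.0361). Zim1 rose there, with 4.83 and 3.93 CPM under 4OHT, against 1.38 and 2.27 CPM under DMSO (log2 1.29, SE 0.31, adjusted p = 0.0267). Neither passed in Dux-Het cells, where the log2 fold changes were -0.57 for Peg10 (adjusted p = 0.11) and 0.77 for Zim1 (adjusted p = 0.139). Peg10 did pass there without the filter on low counts (adjusted p = 0.00702) and without 4OHT library 2 (adjusted p = 0.017). Gnas fell in Dux-Het cells, with 85.8 and 73.5 CPM under 4OHT, against 131 and 117 CPM under DMSO (log2 -0.62, SE 0.15, adjusted p = 0.026). Slc22a18 rose in Dux-Het cells, with 1.93 and 1.87 CPM under 4OHT, against 0.838 and 0.556 CPM under DMSO (log2 1.46, SE 0.32, adjusted p = 0.0164). Usp29, which fell most in the Ythdc1 set, had 3.96 and 4.42 CPM in Dux-KO cells under 4OHT and 5.53 and 8.64 CPM under DMSO (log2 -0.72, adjusted p = 0.146). In Dux-Het cells it had 5.28 and 3.05 CPM under 4OHT and 7.06 and 7.55 CPM under DMSO (log2 -0.79, adjusted p = 0.118). Magel2 had 9.96 and 12.1 CPM in Dux-KO cells under 4OHT and 7.32 and 4.08 CPM under DMSO (log2 1.00, adjusted p = 0.0836). It passed there with DESeq2 (adjusted p = 0.0339) and without the filter on low counts (0.00202). In Dux-Het cells it had 12.2 and 6.72 CPM under 4OHT and 7.08 and 9.13 CPM under DMSO, which overlapped. Gnas (0.0317), Mest (0.0421), Nnat (0.0304) and Plagl1 (0.0395) also passed in Dux-KO cells with DESeq2, by the adjusted p-values given, Mest higher and the other 3 lower under 4OHT.

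**Figure D4:**
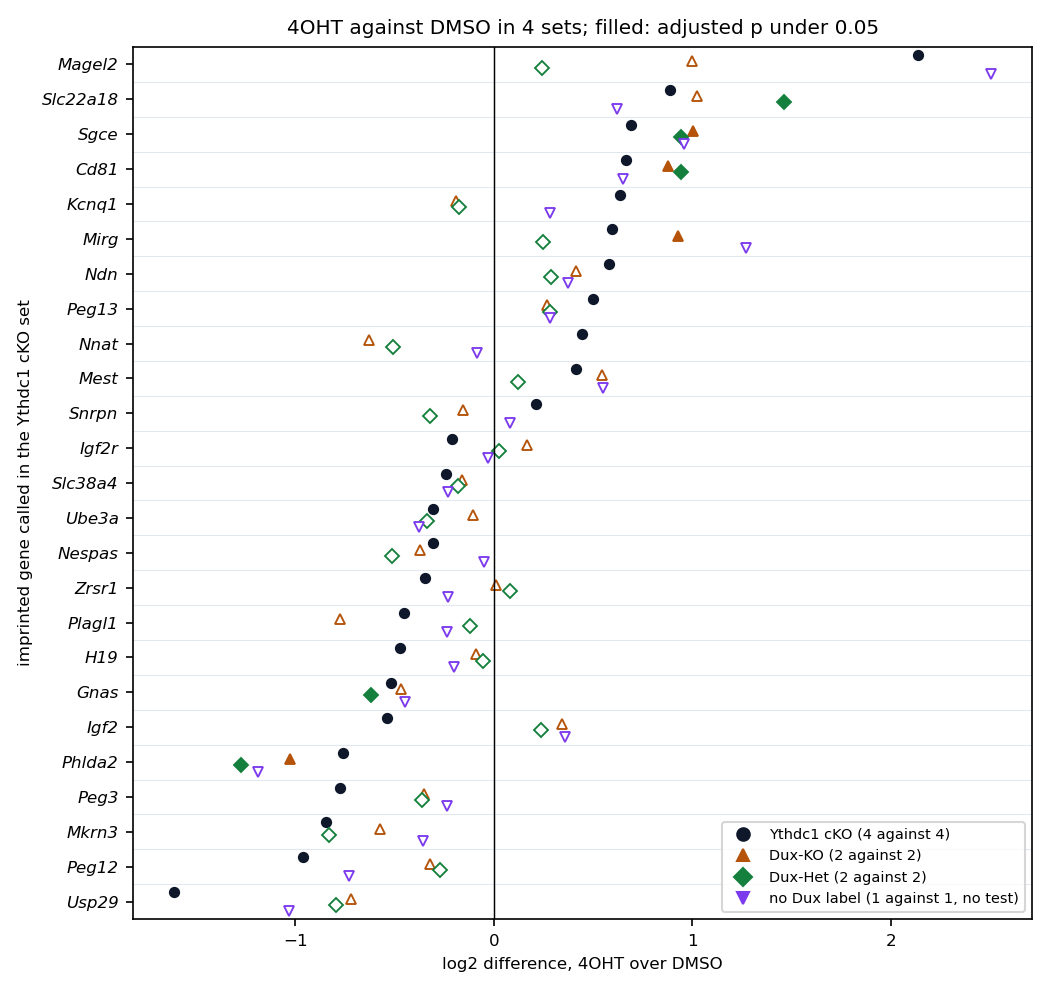
Log2 difference between 4OHT and DMSO for the 25 imprinted genes called in the Ythdc1 set, shown for Ythdc1 cKO, Dux-KO, Dux-Het and the pair with no Dux label, with filled points where adjusted p was under 0.05 and no test for the pair. For Magel2 the values are 2.14 in Ythdc1 cKO, 1.00 in Dux-KO, 0.24 in Dux-Het and 2.51 in the pair.

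The calls in the Dux set depended on single libraries. In Dux-KO cells none of the 8 was called without 4OHT library 1 (adjusted p 0.0744 to 0.259) or without 4OHT library 2 (0.0705 to 0.244). Without DMSO library 1 Cd81 alone was called, with 0.0772 to 0.238 for the others, and without DMSO library 2 Cd81, Sgce and Zim1 were, with 0.0657 to 0.128 for the other 5. In Dux-Het cells Cd81 alone of the 6 was called without 4OHT library 2, the others lying between 0.0569 and 0.151. Gnas (0.11) and Sgce (0.0707) were lost without DMSO library 1, and Dlk1 (0.0823) and Slc22a18 (0.0792) without DMSO library 2. The 5 primitive endoderm markers summed to 9.90 to 11.7 CPM in Dux-KO cells under 4OHT, against 5.49 to 6.22 CPM under DMSO, and to 8.74 to 11.5 CPM in Dux-Het cells under 4OHT, against 4.93 to 5.77 CPM under DMSO. The 5 ESC markers summed to 854 to 904 CPM in Dux-KO cells under 4OHT, against 1180.0 to 1420.0 CPM under DMSO, and to 864 to 1100.0 CPM in Dux-Het cells under 4OHT, against 1310.0 CPM in both libraries under DMSO. The 6 neural markers summed to 110.0 to 111 CPM in Dux-KO cells under 4OHT, against 130.0 to 163 CPM under DMSO, and to 87.0 to 110.0 CPM in Dux-Het cells under 4OHT, against 121 to 143 CPM under DMSO. Tested singly, 1 of these 6 rose and 1 fell in Dux-KO cells (median log2 fold change 0.06). In Dux-Het cells 1 rose and 2 fell (median -0.44). The 6 trophectoderm markers summed to 36.3 to 37.6 CPM in Dux-KO cells under 4OHT, against 30.9 to 32.9 CPM under DMSO, and to 35.9 to 37.5 CPM in Dux-Het cells under 4OHT, against 29.4 to 34.1 CPM under DMSO. Tested singly, 0 of these 6 rose and 1 fell in Dux-KO cells (median log2 fold change -0.32). In Dux-Het cells 0 rose and 0 fell (median -0.08), so such a sum does not stand for each marker. Of all entries 9.86% were called in Dux-KO and 9.34% in Dux-Het cells. The 6 fibroblast markers summed to 33.5 to 37.5 CPM in Dux-KO cells under 4OHT, against 58.0 to 74.9 CPM under DMSO, while in Dux-Het cells they overlapped, at 29.9 to 39.0 CPM under 4OHT and 19.5 to 67.1 CPM under DMSO. No marker of these lists was at 0 in these groups. The part of these shifts in the levels of the imprinted genes was not tested.

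Of the 25 imprinted genes called in the Ythdc1 set, 19 had the same sign of the 4OHT effect in Dux-KO cells and 19 in Dux-Het cells (76.0% each, beside 88.5% and 91.6% of all entries called in the Ythdc1 set). 19 had the same sign in all 4 sets of libraries, counting the pair with no Dux label, 8 of them higher and 11 lower. The exceptions were Igf2, Igf2r, Kcnq1, Nnat, Snrpn and Zrsr1. Of the genes called both in the Ythdc1 set and in a Dux genotype, Cd81, Mirg, Phlda2 and Sgce in Dux-KO cells and Cd81, Gnas, Phlda2, Sgce and Slc22a18 in Dux-Het cells moved the same way, as did 99.2% and 99.7% of all entries called in both. In the pair with no Dux label, Magel2 had 424 counts under 4OHT and 48 under DMSO, or 9.46 CPM (95% exact Poisson interval 8.58 to 10.4) against 1.25 CPM (0.924 to 1.66). The pair has 1 library per treatment, and the interval covers counting error only. Magel2 counts were even in 21 of 22 libraries, so its counts may not be single independent events and the interval may be too narrow.

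Dux-KO and Dux-Het cells were also set against each other under each treatment, with the libraries already used above. No imprinted gene passed the test under DMSO or under 4OHT with edgeR, and none with DESeq2. At an unadjusted p under 0.05 there was 1 under each treatment. Of all 29322 entries, 0.0341% were called under DMSO, all lower in Dux-KO cells, and 0.276% under 4OHT, 0.00341% higher and 0.273% lower in Dux-KO cells.

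H19 and Igf2 set 2 of the Dux-Het libraries apart from the other libraries of the Dux set. The Dux-Het libraries numbered 2 had 103 CPM of H19 under 4OHT and 88.9 CPM under DMSO, where the other 8 libraries of the set lay between 182 and 241 CPM. The same 2 libraries had 7.50 CPM of Igf2 under 4OHT and 5.98 CPM under DMSO, where the other 8 lay between 2.32 and 3.79 CPM. Their count ratios of H19 to Igf2 were 13.7 under 4OHT and 14.9 under DMSO. The Dux-Het libraries numbered 1 had ratios of 71.6 under 4OHT and 80.8 under DMSO, and the Dux-KO libraries 67.3 and 63.6 under 4OHT and 91.9 and 84.3 under DMSO. In Dux-Het cells the ratio differed far more between library numbers than between treatments. It was lower under 4OHT than under DMSO in each numbered pair of both genotypes and in the pair with no Dux label (62.7 under 4OHT and 96.9 under DMSO), which was not tested. The meaning of the numbers in these cells was not given in the sources used here.

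**Figure D5:**
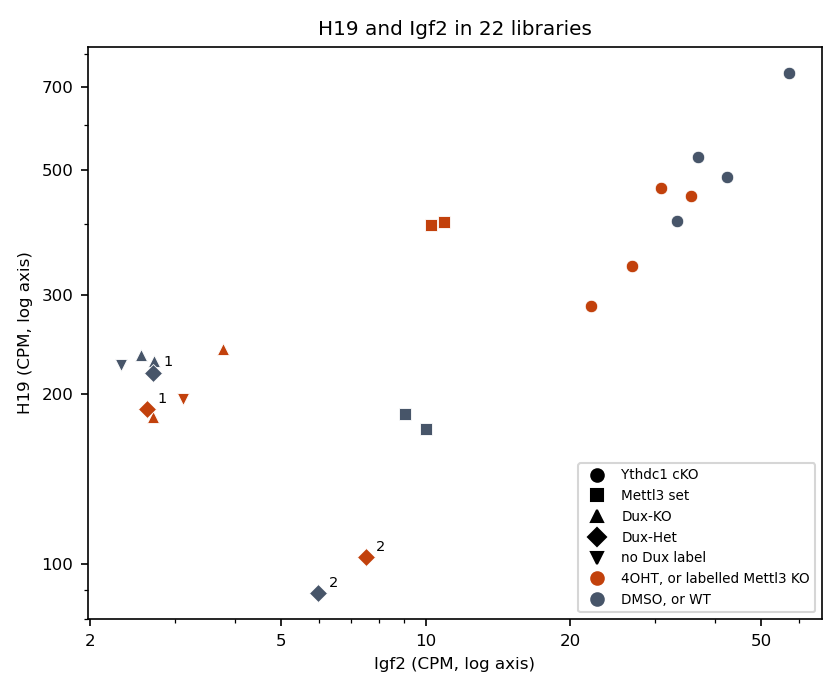
H19 against Igf2 in the 22 libraries, in CPM on log axes, coloured by group, with the Dux-Het libraries numbered. The Dux-Het libraries numbered 2 lie at 103 and 88.9 CPM of H19, below the other libraries of the Dux set, and the 8 libraries of the Ythdc1 set lie at Igf2 levels of 22.1 to 57.0 CPM.

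Count ratios were also taken within other domains. The ratio of Peg10 to Sgce was 15.1 and 14.5 in Dux-KO cells under 4OHT, against 60.8 and 45.1 under DMSO, and 16.1 and 20.2 in Dux-Het cells under 4OHT, against 50.1 and 55.1 under DMSO. In the Mettl3 set it was 24.7 and 17.8 in the libraries labelled KO, against 37.0 and 33.9 in WT. The ratio of Snrpn to Snurf was 7.06 to 7.94 in the 8 libraries of the Ythdc1 set and 3.23 to 4.14 in the 14 others.

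Beyond the 40, a list of 59 further imprinted genes had 54 in the table. Under 4OHT in the Ythdc1 set 16 rose and 14 fell of 44 tested (68.2%, beside 45.1% of all entries), their median log2 fold change being -0.03. The largest were Klf14, a maternally expressed transcription factor gene near Mest, at 1.68 ± 0.512 CPM under 4OHT and 0.115 ± 0.0478 CPM under DMSO (log2 3.83, adjusted p = 1.15e-06), and Zim2, of the Peg3 domain, at 0.0666 ± 0.0449 CPM under 4OHT and 0.579 ± 0.149 CPM under DMSO (log2 -2.97). Zim3, also of the Peg3 domain and opposite Usp29, fell by 1.47 on the log2 scale, to 0.401 ± 0.0854 CPM under 4OHT, against 1.14 ± 0.206 CPM under DMSO. Dhcr7, which makes cholesterol and lies beyond the Kcnq1 domain, fell to 36.4 ± 2.91 CPM under 4OHT, against 132 ± 16.2 CPM under DMSO (log2 -1.83). In the libraries labelled Mettl3 KO 7 rose and 10 fell of 44 (38.6%, beside 31.2% of all entries), the largest being Sfmbt2, a Polycomb-related gene expressed from the paternal allele in the placenta, at 8.62 ± 3.10 CPM in the libraries labelled KO and 80.8 ± 1.87 CPM in WT (log2 -3.21, adjusted p = 1.77e-05). In Dux-KO cells none rose and 3 fell of 48 (6.25%, beside 9.86% of all entries), and in Dux-Het cells 2 rose and 4 fell of 48 (12.5%, beside 9.34%), Dhcr7 falling in both (log2 -1.64 and -1.63).

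Of 26 genes that set or keep imprints and DNA methylation, 5 rose and 14 fell in the Ythdc1 set, or 19.2% and 53.8%, beside 23.7% and 21.4% of all entries (median log2 fold change -0.31). In the libraries labelled Mettl3 KO 2 rose and 12 fell, or 7.69% and 46.2%, beside 16.4% and 14.9% of all entries (median -0.28). Dnmt3l, a cofactor of the de novo DNA methyltransferases, was at 157 ± 19.7 CPM under 4OHT and 61.1 ± 16.5 CPM under DMSO (log2 1.39). In the Mettl3 set it was at 43.4 ± 17.0 CPM in the libraries labelled KO and 88.3 ± 4.22 CPM in WT (log2 -1.01). Dppa3, which guards maternal methylation in the zygote, fell to 2.01 ± 0.864 CPM under 4OHT, against 4.77 ± 0.921 CPM under DMSO (log2 -1.25). Of 26 Polycomb genes tested in the Mettl3 set 7 rose and 6 fell (26.9% and 23.1%, beside 16.4% and 14.9% of all entries), among them Ezh2, the histone H3 lysine methyltransferase of the complex, at 64.7 ± 3.69 CPM in the libraries labelled KO and 146 ± 7.35 CPM in WT (log2 -1.16). In the Ythdc1 set 9 of 26 Polycomb genes rose and 8 fell (65.4%, beside 45.1% of all entries). The part of these factors in the levels of the imprinted genes was not tested.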

How the data were processed

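RNA was measured by ribosome-depleted total RNA-seq in 22 mouse ESC libraries; the kit digests the second cDNA strand, per the labels' protocols. STAR 2.7, Bowtie2, RSEM and the build mm10 are named in the submitters' processing notes. How genes were defined and counted, with or without strand, and what became of reads with several matches was not given in the sources used here. Raw counts are in a table that the authors deposited, with 44749 entries, 43672 with a GENCODE vM21 symbol and 1077 for repeat families. Their second deposited table holds normalized signal, a count over 1 factor per library, and was used here as an alternative scaling only.

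Groups were compared on raw counts by the quasi-likelihood F test of edgeR 4.0.16 (R 4.3.3), after filterByExpr and TMM, over all entries, and p-values adjusted by Benjamini-Hochberg were called under 0.05. All adjusted p-values come from this test unless DESeq2 (1.42.0) is named. Standard errors were obtained by dividing the size of a log2 fold change by the root of its F statistic. The Ythdc1, Mettl3 and Dux sets were fitted apart, the Dux set with 1 spread over its 10 libraries, and the difference between the Ythdc1 and Mettl3 effects in 1 fit of 12 libraries. Levels are CPM after 1 TMM scaling of all 22 libraries, and positions are those of GENCODE vM21 on GRCm38. Other scalings, no low-count filter, gene entries only, the replicate block, DESeq2 and leaving out each library were the alternatives. The fits were tested on simulated data.

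In the Ythdc1 set same-numbered libraries shared deviations from the means of their groups (correlations of 0.33, 0.13, 0.36 and 0.34 over 10172 entries of at least 10 CPM), so by the data the numbers pair the libraries, and the fit with the number as a block is given where it changes a call.

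All 40 members were named. Of the other lists, genes past the threshold and at least 2-fold changed could be named, 6 at most a list and comparison. The members and the lists were chosen with earlier results of these data known. Of the 59 further imprinted genes the symbols Slc22a2, Mestit1, Frat3, Peg3os and Rasgrf1os were not found in the table. The search was by symbol only, and a gene entered under another name would be missed. Promoter windows of Cdkn1c, H19, Impact, Kcnq1, Nespas, Peg10, Peg13 and Sgce were not analysed here.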

Additional observations from a re-analysis of the deposited data

Results flagged for a closer look

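The imprinted genes listed next had a Ythdc1 effect (4OHT against DMSO) that differed from the Mettl3 effect (labelled KO against WT) when the difference of log2 fold changes was tested with edgeR. It was positive for Nnat (2.30), Mest (1.96), Sgce (1.59), Zim1 (1.51), Peg10 (1.26), Mirg (1.17), Meg3 (1.15), Rian (1.10), Cdkn1c (1.02), Grb10 (1.01) and Cd81 (0.88). It was negative for Usp29 (-2.12), H19 (-1.61), Dlk1 (-1.14), Plagl1 (-1.10), Gnas (-1.04), Peg3 (-1.03), Igf2r (-0.61) and Inpp5f (-0.43). The adjusted p-values ran between 9.72e-07 for Mest and 0.0423 for Dlk1. The 2 sets differ in treatment as well as in genotype, and these cannot be told apart.

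In 2 of 80 groups of 4 libraries tested the highest library stood far from the other 3. Peg10 reached 2378 CPM in DMSO library 4 of the Ythdc1 set, its gap to the next library being 0.915 of the group's range. Plagl1 reached 29.0 CPM in DMSO library 1 of that set, with a gap of 0.963 of the range. Chance marks about 1 in 20 such groups.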

How the results depend on the processing

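In the Ythdc1 set 11 genes rose and 14 fell, and these counts stayed within 1.5 times under every alternative scaling, filter and tool, with 8 to 13 rising and 12 to 15 falling when 1 library was left out. No called gene changed direction under any alternative. In the Mettl3 set the counts of 10 higher and 10 lower ranged from 1 to 13 and from 1 to 14 when 1 library was left out. In Dux-KO cells the counts of 6 higher and 2 lower ranged from 0 to 3 and from 0 to 1, and in Dux-Het cells the counts of 3 higher and 3 lower ranged from 1 to 3 and from 1 to 4. Without the filter on low counts 6 genes were lower in Dux-KO cells and 5 in Dux-Het cells. Lower calls in Dux-KO cells numbered 5 with DESeq2 and 5 with the replicate block. With that block Magel2 (adjusted p = 0.0415), Gnas (0.0402), Mest (0.0316), Nnat (0.0454) and Plagl1 (0.0493) were called in Dux-KO cells and Peg10 (log2 -0.58, adjusted p = 0.0397) in Dux-Het cells. All calls together numbered 28 with the replicate block in the Ythdc1 set and 22 in the Mettl3 set. Same-numbered libraries correlated at 0.0766 in the Mettl3 set, 0.243 in Dux-KO and 0.545 in Dux-Het cells. Between Dux-KO and Dux-Het cells they correlated at -0.198 under 4OHT, and pairing them crosswise, tried after seeing the data, gave 0 calls. The differences between Ythdc1 and Mettl3 effects numbered 15 to 20 when 1 library was left out. The cause of these shifts was not tested. With 2 libraries a group and genes such as Zim1 and Slc22a18 under 5 CPM, small differences were not detectable at this depth.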

Other observations

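Counts of some imprinted genes were mostly even numbers. Magel2 had an even count in 21 of 22 libraries, Ndn and Peg12 in 19 each and Mkrn3 in 18. Over all entries 58.1% of counts between 10 and 200 were even. How read pairs were counted was not given in the sources used here.

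Kcnq1ot1 and Snhg14, the long noncoding RNAs that run opposite Kcnq1 and Ube3a and silence neighbouring genes in cis, were tested among the further imprinted genes. In the Ythdc1 set the log2 fold change, 4OHT over DMSO, was 0.55 for Kcnq1ot1 and -0.41 for Snhg14 (adjusted p = 0.00101 for Snhg14). In the Mettl3 set, labelled KO over WT, it was 0.97 for Kcnq1ot1 and 0.51 for Snhg14 (adjusted p = 0.00641 for Snhg14). No adjusted p is given here for Kcnq1ot1, so its values are fold changes only. Kcnq1 had log2 fold changes of 0.64 in the Ythdc1 set and 1.22 in the Mettl3 set. Reads counted without strand could not be told apart between Kcnq1 and Kcnq1ot1. Kcnq1ot1 and Snhg14 were chosen for naming after their values were seen.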
